A study of Cavia porcellus with 18 samples.

Results

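A CG dyad is a CG step of the double helix seen as the pair of cytosines it holds, 1 on each strand. Dyads were taken here as pairs of distinct CG positions on one scaffold whose start differed by exactly 1 base, among the positions with a methylation level in both bisulfite assays of the guinea pig (Cavia porcellus) hippocampus. Of 167387 such positions, 20716 fell into 10624 pairs. Runs of 3 or more consecutive positions, in which a pair may join a C of one CG to a C of the next, held 795 of these pairs. The other 9829 pairs, each an isolated run of exactly 2 positions, are the dyads described below. The position with the smaller coordinate is called the top strand and its partner the bottom strand, which holds if each pair is a true CG step. No genome sequence was used to check this.

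Methylation of a CG is normally carried by both cytosines. After replication only the old strand carries it, and the maintenance methyltransferase DNMT1, guided by UHRF1, which binds such hemimethylated CG, copies it to the new strand. TET enzymes oxidise 5-methylcytosine, and bisulfite conversion does not tell 5-methylcytosine from 5-hydroxymethylcytosine, which is abundant in brain. A dyad whose strands stay far apart in level is a candidate for lasting hemimethylation.

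All libraries came from the hippocampi of 3 wild type male guinea pigs of 12 weeks, with no treatment. H3K4me1 ChIP-bisulfite (3 libraries, 1 per animal) measured methylation on DNA that was precipitated with H3K4me1, a histone mark of enhancers and promoter flanks. Reduced representation bisulfite sequencing (RRBS, 6 libraries, read at 50 or 100 bases) measured it on genomic DNA cut with MspI and ApeKI, whatever its chromatin. H3K4me1 ChIP-seq and ChIP-seq of RNA polymerase II phosphorylated on serine 5 (Pol II PS5, the initiating form), with 3 libraries each, gave the peak lists. The deposited levels pool all animals, so each strand has 1 value per assay and no spread between animals could be computed. Intervals below are exact (Clopper-Pearson) 95% binomial intervals over dyads. They cover counting error only, since dyads share animals, libraries and peaks.

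The dyads lay in 5966 H3K4me1 peaks on 225 scaffolds, and 4057 of these peaks held 1 dyad. Their RRBS levels rested on 1291566 reads, with a median of 21 reads on either strand and a median of 16 at the strand with fewer reads. Reads per position were not given for ChIP-bisulfite. Positions in dyads averaged 40.2% methylation in ChIP-bisulfite and 48.9% in RRBS, against 45.9% and 54.7% for the 146671 positions in no pair. They lay within Pol II PS5 peaks in 4.33% of cases and within 1000 bases of a listed transcription start site in 16.9%, against 1.88% and 13.0% of the positions in no pair. A pair needs 4 measured levels, and 91154 shared positions had a neighbour with at least 10 RRBS reads, of which 22.7% had it in both assays. Dyads thus had more RRBS reads and lay closer to start sites than the other shared positions.

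The strands of a dyad were alike in level in about as many dyads as not, and the assays differed in how they departed from agreement. In ChIP-bisulfite 54.2% of the dyads had strands within 10 percentage points (interval 53.2 to 55.2) and 37.2% had exactly equal strands. In RRBS 46.0% were within 10 points (interval 45.0 to 47.0) and 17.0% were equal. The mean absolute strand difference was 25.3 points in ChIP-bisulfite (SD 32.04 across dyads) and 17.4 points in RRBS (SD 17.9), while the medians were 8 and 12 points. ChIP-bisulfite thus held both more equal dyads and more dyads far apart. Differences of 90 points or more made up 8.24% of the dyads in ChIP-bisulfite and 0.448% in RRBS.

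**Figure D1:**
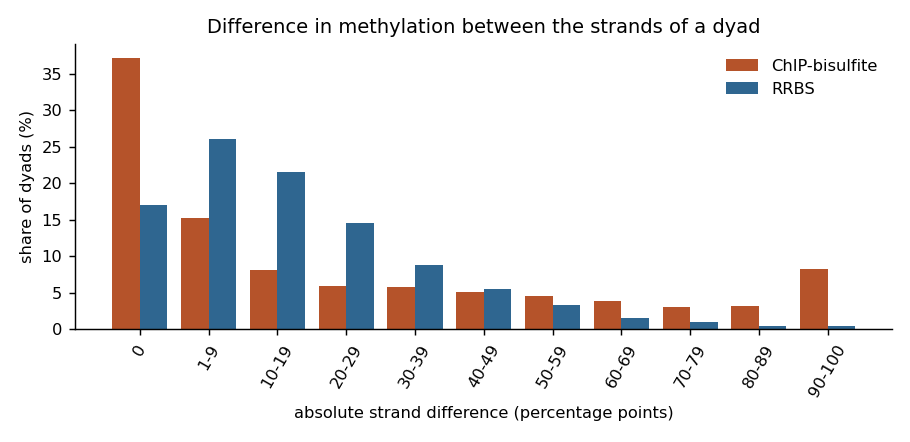
Share of the 9829 dyads (vertical axis, percent) by the absolute difference in methylation level between their strands (horizontal axis, percentage points), for ChIP-bisulfite and RRBS, from pooled animals. ChIP-bisulfite has a peak at 0 (37.2%) and another at 90 to 100 points (8.24%), and the RRBS share is highest at 1 to 9 points and under 1% from 70 points on.

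By state, both strands were at or under 20% in 37.5% of the dyads in ChIP-bisulfite and in 21.8% in RRBS. Both were at or over 80% in 18.7% and 17.0%. Strands split between these states, 1 at or under 20% and its partner at or over 80%, made up 12.4% in ChIP-bisulfite and 1.30% in RRBS. Both strands lay between these limits in only 4.69% of the dyads in ChIP-bisulfite, against 26.6% in RRBS. All 4 levels were 0 in 878 dyads and 100 in 238, and in 19.1% of the dyads all 4 levels lay within 10 points of each other. Across dyads the top and bottom strand levels had a Pearson's r of 0.54 in ChIP-bisulfite and 0.75 in RRBS (n = 9829, points that share libraries).

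Strand differences varied with the mean level of the dyad, in part by construction, since strands can be far apart only near 50%. Binned by its own mean, the ChIP-bisulfite difference averaged 2.32 points under 10%, 81.5 points from 50% to 60% and 2.95 points at 90% or more. The RRBS difference averaged 3.47, 30.6 and 6.25 points in the same bins of its own mean. Binning by the other assay loosens that bound but does not remove it, since the dyad means of both assays were correlated (Pearson's r of 0.72). Binned by the RRBS mean, the ChIP-bisulfite difference was 7.70 points under 10%, 40.03 points from 60% to 70% and 24.1 points at 90% or more. Binned by the ChIP-bisulfite mean, the RRBS difference lay between 13.7 and 22.6 points in all 10 bins. Dyads under 10% in the other assay were the most alike in both assays, with 84.6% within 10 points in ChIP-bisulfite and 56.1% in RRBS. Their own levels were low as well, with means of 4.93% in ChIP-bisulfite and 21.8% in RRBS, which limits the difference.

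**Figure D2:**
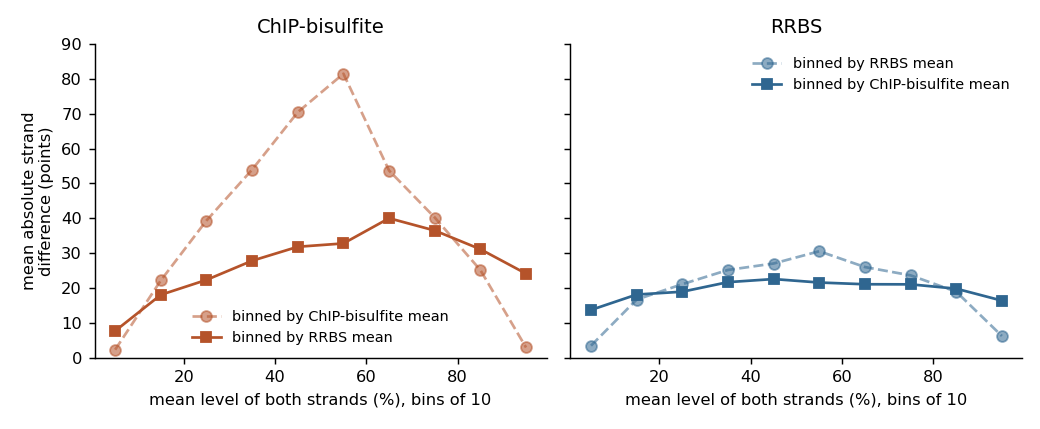
Mean absolute strand difference (vertical axis, percentage points) by the mean level of both strands in bins of 10% (horizontal axis), for ChIP-bisulfite and RRBS. Dashed lines bin dyads by the mean of the same assay, which limits the difference at either end, and solid lines bin them by the mean of the other assay. The ChIP-bisulfite maximum is 81.5 points by its own mean and 40.03 points by the RRBS mean.

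RRBS strand differences were smaller where more reads were counted. Strands were within 10 points in 43.2% of 4086 dyads with 10 to 14 reads at the strand with fewer reads, in 52.2% of 1074 dyads with 30 to 49 reads and in 76.3% of 304 dyads with at least 100 reads. The root mean square difference was 29.1, 17.8 and 11.9 points in these classes, while counting error alone gives 13.9, 8.58 and 3.32 points. Over all dyads the observed variance was 4.42 times the counting variance. The observed spread stayed above counting error in every class. ChIP-bisulfite agreement lay between 51.6% and 55.4% over the same classes of RRBS reads, and its share at least 80 points apart lay between 11.2% and 12.8% up to 49 reads, at 8.05% from 50 to 99 reads and at 0.987% from 100 reads.

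**Figure D3:**
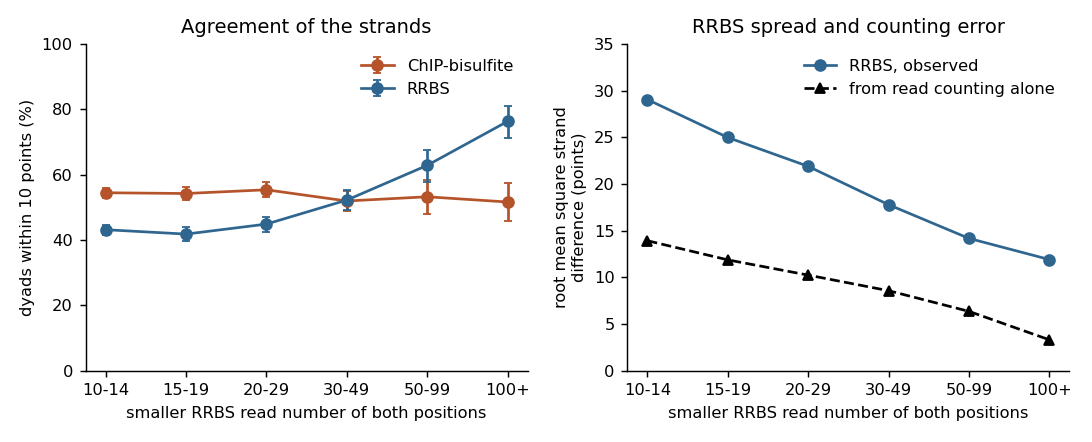
Dyads by the smaller RRBS read number of both positions (horizontal axes). The left panel gives the share within 10 points (percent, bars are exact 95% intervals) in both assays, and the right panel the root mean square RRBS strand difference (points) beside that expected from counting reads. RRBS agreement goes from 43.2% to 76.3% and its spread stays above the counting line in every class.

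Of the dyads with at least 100 reads, 249 lay in 4 peaks that each held more than 50 dyads. The peak at scaffold_927 from 40 to 10214 alone held 293 dyads, with mean levels of 12.5% in ChIP-bisulfite and 22.2% in RRBS and a median of 123 reads at the strand with fewer reads. The others were at scaffold_13 from 48344145 to 48360429 with 132 dyads, scaffold_537 from 187 to 13940 with 66, and scaffold_927 from 10897 to 27858 with 63. Without these 4 peaks, left out after seeing the data, RRBS agreement at 100 reads or more was 61.8% over 55 dyads. ChIP-bisulfite agreement in these 55 was 40%, and 3.64% of them (2 dyads) were at least 80 points apart.

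Each RRBS dyad was tested for a strand difference with Fisher's exact test on methylated and unmethylated reads, adjusted over all 9829 dyads (Benjamini-Hochberg). At an adjusted p under 0.05, 1337 dyads (13.6%) were called, 688 (7%) with the top and 649 (6.6%) with the bottom strand higher. Their median difference was 47 points and their median of the smaller read number was 18. The test takes reads as independent molecules and ignores that 3 animals were pooled, so a call shows a difference between the reads of the strands and not one shared by animals. In 491 of the called dyads the same strand was higher in ChIP-bisulfite, in 510 the opposite strand was and in 336 the ChIP-bisulfite strands were equal. Of the unequal ones 49.1% (interval 45.9 to 52.2) thus went the same way.

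Which strand was higher in RRBS told little of which was higher in ChIP-bisulfite. Across dyads the signed differences of ChIP-bisulfite and RRBS had a Pearson's r of 0.008 (n = 9829). Of 1187 dyads at least 40 points apart in RRBS, 457 had the same strand higher in ChIP-bisulfite and 446 the opposite one (50.6% the same, interval 47.3 to 53.9). At 60 points these counts were 128 and 123, and at 80 points 28 and 28. Chosen in ChIP-bisulfite at 80 points, 519 dyads went the same way and 512 the opposite way in RRBS (50.3%, interval 47.2 to 53.4). A ChIP-bisulfite level lay as far from the RRBS level of its own strand (a mean of 26.01 points) as from that of the partner strand (26.13 points). The dyad means of both assays had a Pearson's r of 0.72 (n = 9829). Among dyads at least 40 points apart in RRBS with 30 to 49 reads, 10 went the same way and 22 the opposite way (31.2% the same, interval 16.1 to 50.01), and at 50 reads or more 6 and 4 did.

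At least 80 points between the strands were reached by 1124 dyads in ChIP-bisulfite (11.4%, interval 10.8 to 12.1) and by 82 in RRBS (0.834%, interval 0.664 to 1.03). In 391 of the 1124 the levels were exactly 0 and 100, and in 20 of the 82. The ChIP-bisulfite candidates lay in 1027 peaks, and their RRBS levels had a median difference of 17 points, against 12 points for all dyads. Their RRBS mean was 61.8%, against 48.9% for all dyads. The 82 RRBS candidates had a median of 11.5 reads at the strand with fewer reads, and 77 had under 20. All 82 passed Fisher's exact test, which their choice by this difference favours. Their share was 1.62% at 10 to 14 reads, 0.514% at 15 to 19 and 0.163% at 20 to 29 reads. Just under the threshold, 123 dyads differed by 75 to 79 points in ChIP-bisulfite and 163 by 80 to 84, and in RRBS these counts were 38 and 19.

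Both assays placed 14 dyads (0.142%) at least 80 points apart, which is 1.25% of the ChIP-bisulfite list and 17.1% of the RRBS list. Beside these shares, 0.834% of all dyads were that far apart in RRBS and 11.4% in ChIP-bisulfite. The same strand was high in both assays in 6 of them (0.061% of all dyads) and opposite strands in 8, so that 42.9% of the 14 went the same way (interval 17.7 to 71.1). Of the 6, the dyad with most reads was at scaffold_3, position 17135387, with the top strand at 100% and the bottom strand at 0% in ChIP-bisulfite. Its RRBS levels were 88% over 16 reads and 0% over 15 reads (Fisher's exact test, adjusted p = 5.2e-05). It lay 22214 bases downstream of the start site of ENSCPOG00000010605. The reverse pattern, bottom strand high, was seen in the other 5.

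At scaffold_0, position 56227030, ChIP-bisulfite gave 8% on the top and 100% on the bottom strand, while RRBS gave 0% and 100% over 11 reads each. It lay 2429 bases downstream of the start of ENSCPOG00000015583. At scaffold_7, position 51388072, ChIP-bisulfite gave 0% on the top and 92% on the bottom strand, while RRBS gave 0% over 13 reads and 100% over 10 reads. Its distance from the start of ENSCPOG00000010104 was -7117 bases, where a negative value is upstream. The closest to a start was at scaffold_23, position 20448637, at -512 bases from that of ENSCPOG00000007302. There ChIP-bisulfite gave 10% and 100%, while RRBS gave 0% over 11 reads and 87% over 15 reads. At scaffold_124, position 3046244, ChIP-bisulfite gave 0% and 95%, and RRBS gave 8% and 91%. At scaffold_100, position 2877525, ChIP-bisulfite gave 0% and 100%, and RRBS gave 10% and 100%. None of the 14 lay in a Pol II PS5 peak, but only 4.34% of all dyads did, so this absence says little. Of the 6 only the one at scaffold_3 had at least 15 reads on both strands. Gene symbols could not be paired with these identifiers, and exons and introns were not analysed here.

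In the 8 with opposite strands high, the strand with fewer reads had 10 to 25 reads, against 10 to 15 in the 6. At scaffold_166, position 825485, ChIP-bisulfite had the top strand at 100% and the bottom at 0%, while RRBS had 3% over 32 reads and 96% over 25 reads (Fisher's exact test, adjusted p = 4.0e-11). At scaffold_76, position 3855861, ChIP-bisulfite gave 10% and 100%, and RRBS 100% over 25 reads and 6% over 18 reads. The dyads at scaffold_83, position 4865949, and scaffold_4, position 3665696, were likewise reversed. ChIP-bisulfite had 100% and 3% in the one at scaffold_83, where RRBS had 7% and 100%. It had 7% and 95% at scaffold_4, where RRBS had 100% and 0%.

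**Figure D4:**
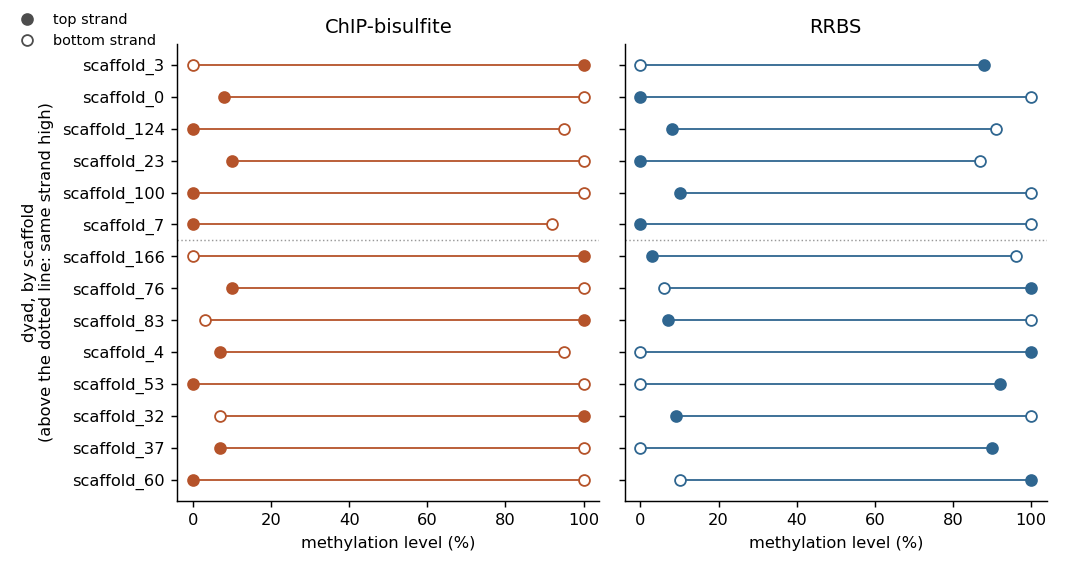
Methylation level (horizontal axes, percent) of the top strand (filled) and bottom strand (open) of the 14 dyads at least 80 points apart in both assays, with ChIP-bisulfite and RRBS side by side, 1 dyad per row and named by scaffold. In the 6 above the dotted line the same strand is high in both assays, and in the 8 under it the strands are exchanged.

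Candidates of 1 assay with the most RRBS reads were 0 to 40 points apart in ChIP-bisulfite where RRBS chose them, and 1 to 9 points apart in RRBS where ChIP-bisulfite chose them. At scaffold_90, position 122, RRBS had 91% over 5801 reads on the top strand and 2% over 890 reads on the bottom strand, while ChIP-bisulfite had 61% and 57%. This dyad lay near the start of its scaffold and in a Pol II PS5 peak. At scaffold_1, position 80294102, both strands were at 100% in ChIP-bisulfite, and RRBS had 10% over 30 and 92% over 75 reads. At scaffold_17, position 16145598, both were again at 100% in ChIP-bisulfite, and RRBS had 100% over 22 and 5% over 43 reads. The RRBS candidates at scaffold_68, position 8992656, scaffold_0, position 18151756, and scaffold_25, position 18181752, were 21, 40 and 40 points apart in ChIP-bisulfite. All 3 had the higher RRBS level on the bottom strand, which was also the higher one in ChIP-bisulfite at scaffold_0 and scaffold_25.

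In the other direction, the dyad at scaffold_13, position 48348087, had 7% and 100% in ChIP-bisulfite but 78% over 211 and 83% over 396 reads in RRBS (Fisher's exact test, adjusted p = 0.41). At scaffold_433, position 189293, ChIP-bisulfite had 5% and 93%, and RRBS 60% over 198 and 61% over 173 reads. The dyads at scaffold_87, position 3754277, and scaffold_72, position 4441320, were 86 and 91 points apart in ChIP-bisulfite, and 6 and 9 points in RRBS with at least 88 reads per strand. Only 14 dyads held all 4 levels between 40% and 60%. The one with most reads, at scaffold_1020, position 28360, had 47% and 56% in ChIP-bisulfite, and 60% over 2365 and 59% over 1770 reads in RRBS.

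Strand differences of neighbouring dyads up to 25 bases apart mostly had the same direction within each assay. Among 989 neighbours 3 to 10 bases apart, the 105 with both dyads at least 40 points apart in ChIP-bisulfite had the same strand higher in 99 cases (94.3%, interval 88.0 to 97.9). In RRBS all 28 such neighbours did (interval 87.7 to 100). At 11 to 25 bases these counts were 61 of 73 in ChIP-bisulfite and 18 of 19 in RRBS, and at 26 to 50 bases 12 of 20 and 4 of 5. From 51 to 100 bases they were 8 of 14 and 4 of 6, and over 100 and up to 500 bases 11 of 23 and 6 of 9. Reads of a strand can cover neighbouring dyads, so these are not independent observations. In the 3 to 10 base class a strand was nearer to the same strand of the next CG than to its own partner. In ChIP-bisulfite the mean absolute difference was 13.0 points to the same strand of the neighbour, 19.9 points within the dyad and 21.6 points to the opposite strand of the neighbour. In RRBS these means were 11.8, 13.5 and 16.0 points. Over 100 and up to 500 bases apart the order was different, with 35.5, 24.0 and 35.5 points in ChIP-bisulfite and 29.1, 18.1 and 29.8 in RRBS. Of 83 peaks with several dyads at least 80 points apart in ChIP-bisulfite, 58 had all of them high on the same strand. Neighbouring dyads that far apart in level went the same way in 29 of 29 cases at 3 to 10 bases. At 11 to 25 bases 15 of 17 did, at 26 to 50 bases 1 of 4, and over 100 and up to 500 bases 1 of 2. Agreement over whole peaks, apart from such close neighbours, was not tested. No expected share was computed for the 58 of 83 peaks, so this count cannot be called high or low. Over all 1124 ChIP-bisulfite candidates, 625 were high on the bottom strand and 499 on the top.

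**Figure D5:**
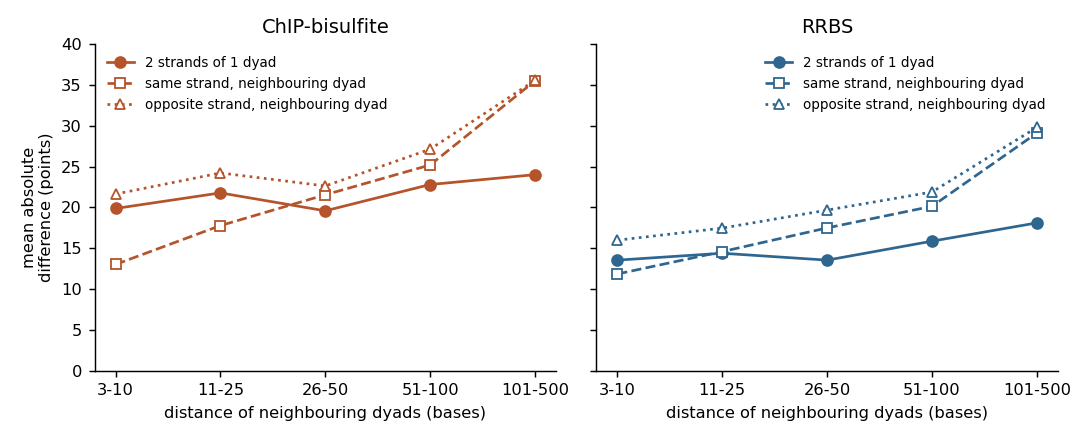
Mean absolute difference in level (vertical axis, percentage points) between the strands of 1 dyad, between the same strands of neighbouring dyads and between their opposite strands, by the distance between the dyads (horizontal axis, bases), in each assay. At 3 to 10 bases the same-strand difference is the smallest of the 3 in both assays (13.0 and 11.8 points), and over 100 and up to 500 bases the difference within the dyad is.

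Pairs of neighbouring positions that are no dyad gave a scale for these values. Dyads were within 10 points in 54.2% in ChIP-bisulfite and 46.0% in RRBS, against 75.1% and 62.8% of 20465 pairs of adjacent positions 2 to 10 bases apart, whose strands are not known and some of which belong to dyads. At least 80 points were reached by 11.4% and 0.834% of the dyads, against 7.58% and 0.850% of these pairs. Mean levels were 40.2% and 48.9% in dyads, against 34.3% and 42.0% in these pairs. Of 9559 pairs 26 to 50 bases apart, 56.5% were within 10 points in ChIP-bisulfite and 46.6% in RRBS, and 13.1% and 1.82% were at least 80 points apart. By Fisher's exact test 13.6% of the dyads and 1399 of the 20465 pairs 2 to 10 bases apart (6.84%) were called in RRBS. Pairs on one strand share reads. The difference between the kinds of pair was not tested.

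ChIP-bisulfite levels were unequal between the strands on average. The top strand averaged 38.9% and the bottom strand 41.5%, a difference of -2.66 points (SD 40.8 across dyads), and it was negative on 44 of the 55 scaffolds with at least 50 dyads. In RRBS the averages were 48.96% and 48.86%, a difference of 0.098 points (SD 24.97), negative on 24 of the 55. The ChIP-bisulfite difference was -0.472 points in dyads under 20% in RRBS, -2.26 points from 20% to 80% and -5.87 points at 80% or more. Candidates shared it, with the bottom strand high in 625 of the 1124 in ChIP-bisulfite. Relative to the listed gene, with dyads of genes on both strands left out, the sense strand averaged 41.8% and the antisense strand 42.1% in ChIP-bisulfite over 7857 dyads. In RRBS the sense strand averaged 50.7% and the antisense strand 51.4%. More than 1000 bases downstream of a start, sense minus antisense was -0.144 points (SD 43.8) in ChIP-bisulfite and -0.603 points (SD 26.9) in RRBS.

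Strands were more alike close to start sites, where levels were low. Within 1000 bases of a start 62.9% of 1664 dyads were within 10 points in ChIP-bisulfite (interval 60.5 to 65.2) and 61.2% in RRBS (58.9 to 63.6), against 52.4% and 42.9% of 8165 dyads farther away. Mean levels were 23.9% and 28.8% near starts, against 43.5% and 53.0%. The 4 peaks rich in dyads held 358 of the 1664. Without them, agreement near starts was 63.9% in ChIP-bisulfite and 57.8% in RRBS over 1306 dyads, against 52.4% and 42.6% farther away. With 1 dyad per H3K4me1 peak it was 64.1% and 54.8% near starts. The share at least 80 points apart in ChIP-bisulfite was 6.07% near starts and 12.5% farther away, and in RRBS 0.481% and 0.906%. More than 100000 bases downstream, 49.6% of 1030 dyads were within 10 points in ChIP-bisulfite and 35.2% in RRBS, and 15.9% were at least 80 points apart in ChIP-bisulfite. With the other assay's mean between 20% and 80%, agreement near starts was 38.9% in ChIP-bisulfite and 43.8% in RRBS, against 41.3% and 34.8% farther away. The exact intervals of the ChIP-bisulfite shares overlapped (34.9 to 43.0 near starts, 39.8 to 42.8 farther away), and its mean absolute difference was 28.4 points near starts and 32.9 points farther away. Under 20% in the other assay, agreement near starts was 80.8% in ChIP-bisulfite and 71.2% in RRBS, against 76.3% and 48.6% farther away. At 80% or more it was 49.4% and 45.0% near starts, against 54.6% and 46.5%. The direction thus varied with the bin. Levels still differed within these bins. With the ChIP-bisulfite mean under 20%, RRBS levels averaged 13.3% near starts and 27.8% farther away. Between 20% and 80% they averaged 47.1% and 59.6%. With an RRBS mean between 20% and 80%, ChIP-bisulfite levels averaged 35.5% near starts and 40.7% farther away. The bins thus do not match level, and its part in these differences was otherwise not tested.

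Dyads in Pol II PS5 peaks had strands more alike than those outside, and were lower in level and deeper in reads. Of 427 dyads with a position in such a peak, 65.6% were within 10 points in ChIP-bisulfite (interval 60.9 to 70.1) and 67.2% in RRBS (62.5 to 71.7), against 53.7% and 45.0% of the 9402 outside. The mean absolute difference was 12.3 points in ChIP-bisulfite and 9.97 points in RRBS, against 25.9 and 17.7 points outside. Dyads in Pol II PS5 peaks were low in level, at 22.4% and 28.8% against 41.0% and 49.8%, and deep in RRBS, with a median smaller read number of 54 against 16. With 20 to 49 reads, 71.9% of 89 dyads inside were within 10 points in ChIP-bisulfite and 60.7% in RRBS, against 53.6% and 47.2% of 2823 outside. At 10 to 19 reads these shares were 73.7% and 56.8% of 118 inside, against 54.0% and 42.4% of 6110 outside. At 50 reads or more they were 58.6% and 75.5% of 220 inside, against 49.7% and 65.7% of 469 outside. There the ChIP-bisulfite intervals overlapped (51.8 to 65.2 inside, 45.1 to 54.3 outside). The 4 peaks rich in dyads held 240 of the 427, and without them agreement inside was 63.1% in ChIP-bisulfite and 59.4% in RRBS over 187 dyads. With the other assay's mean under 20%, ChIP-bisulfite agreement was 77.9% inside and 77.8% outside, while RRBS agreement was 74.0% inside and 52.8% outside. With the other assay's mean between 20% and 80%, ChIP-bisulfite agreement was 51.5% inside (interval 43.7 to 59.3) and 40.6% outside (39.2 to 42.0), and RRBS agreement was 49.5% inside and 35.5% outside. Within these bins of the ChIP-bisulfite mean, RRBS levels still differed. They averaged 16.2% inside and 24.7% outside under 20%, and 48.3% and 58.3% between 20% and 80%. With an RRBS mean between 20% and 80%, ChIP-bisulfite levels averaged 31.3% inside and 40.4% outside. Read numbers were not matched in these bins. The part of level and depth in these differences was otherwise not tested.

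In Pol II PS5 peaks 11 dyads were at least 80 points apart in any assay, 10 in ChIP-bisulfite (2.34%, against 11.8% outside) and 1 in RRBS (0.234%, against 0.862% outside). Without the 4 peaks rich in dyads the ChIP-bisulfite share inside was 4.81% (9 of 187), against 12.2% outside. Beside those at scaffold_90, position 122, and scaffold_13, the dyad at scaffold_160, position 1992138, had 0% and 100% in ChIP-bisulfite against 5% over 39 and 7% over 45 reads in RRBS. It lay 2087 bases downstream of the start of ENSCPOG00000025033. At scaffold_90, position 3658019, ChIP-bisulfite had 0% and 86%, and RRBS 37% and 61% (Fisher's exact test, adjusted p = 0.22). By the authors' Pol II score per transcript, 52.4% of 6878 dyads with a score were within 10 points in ChIP-bisulfite, against 58.5% of 2951 without, and 46.0% of either kind were in RRBS.

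In the authors' list of sites that differ between the assays, 11.1% of the positions in dyads were listed. The share listed among the other shared positions is not given here, so 11.1% cannot be called high or low. ChIP-bisulfite minus RRBS averaged -8.73 points in dyad positions and -8.84 points in the positions in no pair. At least 1 strand was listed in 1962 dyads, and both in 224 (2.28% of all dyads, 11.4% of the 1962). Of the 224, 166 were lower in ChIP-bisulfite on both strands, 14 were higher on both and 44 went in opposite directions. The split of all listed sites into lower and higher is not given here either.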

How the data were processed

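The members and lists were chosen with earlier results of these data known. Per the file headers, the authors deposited methylation levels of CG positions as whole percent for each assay, with all animals pooled, and a Pol II PS5 score per transcript. The deposited peak lists give a score per peak. The deposited RRBS list was read from its values as read counts per C position with at least 10 reads. The submitters' processing notes name, with no role given, Bismark 0.12.5 and methylKit for the ChIP-bisulfite libraries, BSMAP 2.74 and methylKit for RRBS, and Bowtie2 2.2.3, MACS2 and HOMER 4.6 for ChIP-seq. The genome build is not given in the sources used here, so positions are printed as deposited.

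From these, each position was counted once with its nearest listed start, and pairs were formed in Python 3.11.15 with pandas 2.3.3. Methylated RRBS reads were level times reads, rounded; 99.8% of the levels equalled a whole number of reads within 0.51 points. Fisher's exact test (scipy 1.17.1) was run per dyad and tested on simulated data. Counting variance used the pooled level of both strands. A position lay in a peak if its start did. Named dyads are those with the most RRBS reads at the strand with fewer reads, in each class of candidates. None of the 4764 gene identifiers could be matched to a symbol, so planned gene lists were not used.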

Additional observations from a re-analysis of the deposited data

How the results depend on the processing

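No paired analysis was possible because the deposited levels pool the animals. For the same reason no animal could be left out. Of 61 alternatives over 11 results, 32 left the value within its 95% interval, or a count within 1.5 times, and 29 did not. The alternatives on peaks rich in dyads, on the cross-assay direction, on 1 dyad per peak for Pol II PS5 and start sites, and on all pairs, the 99th percentile of reads and 1 dyad per peak for Fisher's exact test were chosen after seeing the data. Agreement in ChIP-bisulfite (54.2%) was 52.5% at 50 reads or more on both strands. Agreement in RRBS (46.0%) was 51.7% at 20 reads, 68.8% at 50 reads, 44.0% with 1 dyad per H3K4me1 peak, 44.7% without reads above the 99th percentile and 44.7% without peaks of more than 50 dyads. The share at least 80 points apart in ChIP-bisulfite (11.4%) was 10.5% at 20 reads, 4.93% at 50 reads, 13.1% with 1 dyad per peak, 12.1% without peaks of more than 50 dyads, 18.2% at a threshold of 60 points and 8.24% at 90 points. In RRBS (0.834%) it was 0.139% at 20 reads (5 dyads), 0.145% at 50 reads (1 dyad), 3.35% at 60 points and 0.448% at 90 points. In both assays (0.142%) it was 0.0278% at 20 reads (1 dyad), 0 at 50 reads and 0.844% at 60 points. The share with the same direction in both assays (50.6%) was 46.2% at 20 reads. Agreement inside Pol II PS5 peaks was 70.8% in ChIP-bisulfite and 60.7% in RRBS with 1 dyad per peak, 70.4% in ChIP-bisulfite in Pol II peaks of at least the median score, and 59.4% in RRBS without peaks of more than 50 dyads. Within 1000 bases of a start, RRBS agreement was 54.8% with 1 dyad per peak and 57.8% without peaks of more than 50 dyads. The 1337 dyads past Fisher's exact test became 194 by Bonferroni adjustment, 656 of 3601 at 20 reads and 799 of 5966 with 1 dyad per peak, where fewer dyads were tested. With all pairs kept, 16 were at least 80 points apart in both assays. The ChIP-bisulfite reads behind a level are unknown, so no counting error could be given for its differences. The settings of 50 reads kept the 4 peaks rich in dyads, which held 249 of the 304 dyads with at least 100 reads. The cause of these shifts was not tested.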
